A study of Mus musculus with 74 samples.

Results

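The first minutes of a transforming growth factor β (TGF-β) response were read from 24 of the 74 dual-channel mouse arrays of the series. They are all the arrays titled 0 h or 0.3 h of 4 lines, S2WT, S3WT, S2KO and S2WT_vs_U0126, with 3 arrays in each of the 8 groups. At 0.3 h, the labels put untreated RNA in channel 1 and RNA of TGF-β-treated cells of that line in channel 2. At 0 h both channels held untreated RNA, so these arrays show the ratio that each probe gives with no treatment difference. The question asked was which genes had changed by 0.3 h in the same way in all 4 lines, and 12 arrays at 0.3 h were set against 12 at 0 h with line as a factor.

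By their names S2WT and S3WT are wild-type lines and S2KO a knockout line; the labels give no allele, tissue, cell type, dose or clone. In S2WT_vs_U0126 both channel names read S2WT/U0126, and U0126, an inhibitor of the kinase MEK, was thus common to the treated and untreated RNA as far as the labels say. By that reading its cells were S2WT cells, so it is not an independent line, and line here means the group named in the title. A fit without S2WT then still holds S2WT cells given U0126. The remaining line, S3KO, was left out because its 0.3 h source names give no TGF-β in either channel. No array probe carries the symbol Smad2 alone, and a ratio within a line shows no level, so neither the knockout nor a cell type could be checked. Nothing in the labels says whether the 3 arrays of a group came from separate cultures, so a p-value here reflects array-to-array spread, possibly technical.

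TGF-β binds a pair of serine/threonine kinase receptors that phosphorylate Smad2 and Smad3, which join Smad4 and act on genes in the nucleus. Its direct targets include genes for its own inhibitors, such as the inhibitory Smad7 and the corepressors Skil and Tgif1. TGF-β can also activate MAP kinases, the pathway of MEK, which drive many immediate early genes in serum-stimulated cells.

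No gene was called at 0.3 h, and of 7 named genes called at 1 h, 2 had a 0.3 h difference whose 95% interval left out 0. Over 7545 probes tested, limma called 0 at an adjusted p below 0.05, which is 0%, and the smallest adjusted p was 0.965. At an unadjusted p under 0.05 there were 239 probes, or 3.17%, of which 88 were higher and 151 lower. Gadd45b, a stress-inducible regulator of growth arrest and MAP kinase signalling, stood highest among the known targets, at 0.52 ± 0.16 log2 units (SE, 12 arrays against 12) above 0 h. Snai1, which represses E-cadherin and other epithelial genes, followed at 0.31 ± 0.14, and neither was called, with an adjusted p of 0.965 by limma for each. The 7 named genes were picked by a difference from the same 0 h arrays, where a low 0 h value raises both differences. Their 0.3 h values are therefore no independent support for an early rise.

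The same design called genes at every later time. Against the same 0 h arrays, 12 arrays at 1 h gave 11 called probes of 7796 tested (0.141%), of which 10 were higher. At 2 h limma called 50 of 7711 (0.648%) and at 4 h 247 of 7782 (3.17%), with 45 and 141 of them higher. The 3 comparisons share their 0 h arrays with that at 0.3 h, and the S2WT arrays titled 4 h carry a 2 h source name. The median standard error was alike, between 0.17 and 0.19 log2 units at all 4 times. The count at 1 h fell when any line was left out, to 0 without S2WT, 4 without S3WT, and 1 without S2KO or without S2WT_vs_U0126. It was also 0 with S3KO added. Leaving out a line removes arrays, and without 1 array alone the count ran from 5 to 14, so the part of each line was not tested.

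**Figure D1:**
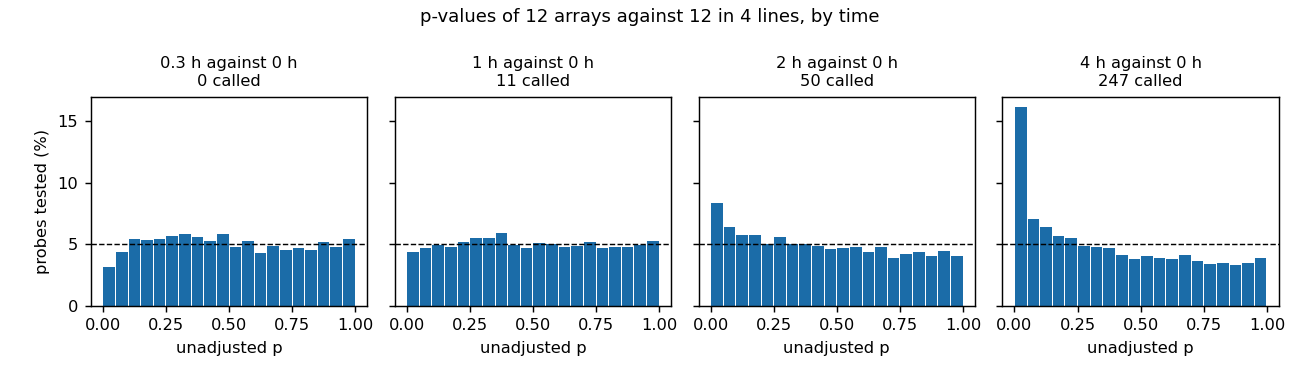
Unadjusted limma p-values in bins of 0.05 (horizontal axis) as a percent of probes tested (vertical axis), for 12 arrays at 0.3, 1, 2 and 4 h against the 12 arrays at 0 h; the dashed line marks an even spread of 5% per bin. The leftmost bin holds 3.17% of probes at 0.3 h, and the number called goes from 0 to 11, 50 and 247.

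A limit on what could have been missed comes from the intervals. The 95% interval of the 0.3 h difference lay wholly within ±0.5 log2 units for 3601 probes, or 47.7% of those tested, and within ±1 for 5924, or 78.5%. For these probes a shared change past that size lies outside the interval. The standard error spanned from 0.084 at the 5th percentile to 0.56 at the 95th, so for the noisiest probes a large shared change could not have been seen.

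The promoters of Gadd45b and Snai1 are shown because these are the known targets with the largest difference at 0.3 h. They are the 250 bases before the RefSeq gene start (GRCm38.p6, plus strand), Gadd45b at chr10:80929841-80930090 and Snai1 at chr2:167537945-167538194. Capitals mark CCAAT, on either strand, and TATAAA.
Gadd45b: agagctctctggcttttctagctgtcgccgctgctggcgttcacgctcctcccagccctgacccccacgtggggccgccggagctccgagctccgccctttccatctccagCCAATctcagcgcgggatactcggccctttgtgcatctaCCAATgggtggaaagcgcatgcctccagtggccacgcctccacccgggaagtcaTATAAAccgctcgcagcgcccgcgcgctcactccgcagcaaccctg
Snai1: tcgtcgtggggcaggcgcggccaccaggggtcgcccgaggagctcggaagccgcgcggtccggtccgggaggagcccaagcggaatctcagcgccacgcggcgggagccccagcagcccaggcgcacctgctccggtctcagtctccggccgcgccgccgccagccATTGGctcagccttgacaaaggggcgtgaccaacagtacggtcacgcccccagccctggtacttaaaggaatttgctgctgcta
The Gadd45b window holds 2 matches to CCAAT and 1 to TATAAA, which ends 40 bases before the start. The Snai1 window holds 1 CCAAT on the minus strand and no TATAAA. Among 32851 promoter windows of this length, 33.8% hold CCAAT and 12.4% TATAAA on either strand. The letters CAGAC, the core of a Smad binding element, TGANTCA, an AP-1 site, and TGACG, the core of a cyclic AMP response element, are in neither window on either strand, and stand in 42.2%, 6.7% and 17.8% of all windows. The motifs do not overlap one another in these windows.

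Gadd45b was already above the array median without treatment. At 0 h its log2 ratio was 0.21, 0.65 and 0.21 in S2WT, 0.76, -0.27 and 0.54 in S3WT, 1.31, 0.75 and 0.36 in S2KO, and 0.96, 0.53 and 0.64 in S2WT_vs_U0126. At 0.3 h it was 1.31, 1.81 and 1.05 in S2WT, 0.51, 0.22 and 0.72 in S3WT, 0.88, 1.20 and 1.73 in S2KO, and 1.44, 0.96 and 1.02 in S2WT_vs_U0126. The groups did not overlap in S2WT, lay edge to edge in S2WT_vs_U0126 and overlapped in S3WT and S2KO. On 11 of 12 arrays the value was above the mean of that line at 0 h. The mean went from 0.55 ± 0.40 at 0 h (SD, n = 12) to 1.07 ± 0.47 at 0.3 h (SD, n = 12), and the 95% interval of the difference ran from 0.19 to 0.84. By line the difference was 1.03 in S2WT, 0.14 in S3WT, 0.46 in S2KO and 0.43 in S2WT_vs_U0126.

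Gadd45b reached its highest mean at 1 h. The mean was 1.93 at 1 h, 1.78 at 2 h and 1.55 at 4 h, each called against 0 h, with limma adjusted p-values of 0.0125, 0.00276 and 0.00513. The step from 0.3 h to 1 h, 0.86 ± 0.22 (SE), was not called (limma adjusted p = 0.457). In S3KO, whose 0.3 h labels give no TGF-β, Gadd45b was at -0.22, -0.29 and 0.71 at 0 h and at 0.29, 0.87 and 0.89 at 0.3 h, a difference in means of 0.62. It stands beside 0.52 for the 4 lines labelled as treated, and no test of S3KO against them was made. The first and second S3KO arrays at 0 h also stood apart, with correlations of -0.16 and -0.09 to the mean of the other 0 h arrays, against 0.50 for the third, and the part of these arrays in the S3KO difference was not tested.

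Snai1 had the same order of times with a smaller early difference. At 0 h its 12 values ran from -0.47 through a median of 0.60 to 1.08, and at 0.3 h from 0.39 through 0.88 to 1.58. The groups overlapped between 0.39 and 1.08, and 10 of 12 arrays at 0.3 h were above their own line's 0 h mean. The difference was 0.66 in S2WT, 0.40 in S2KO, 0.30 in S2WT_vs_U0126 and -0.11 in S3WT, and the interval of the shared value, 0.013 to 0.61, barely left out 0. At 1 h the mean was 1.78 and the difference from 0 h, 1.24 ± 0.22 (SE), was called (limma adjusted p = 0.0149). From 0.3 h to 1 h it gained 0.93 ± 0.18, which just missed the threshold (limma adjusted p = 0.0524).

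**Figure D2:**
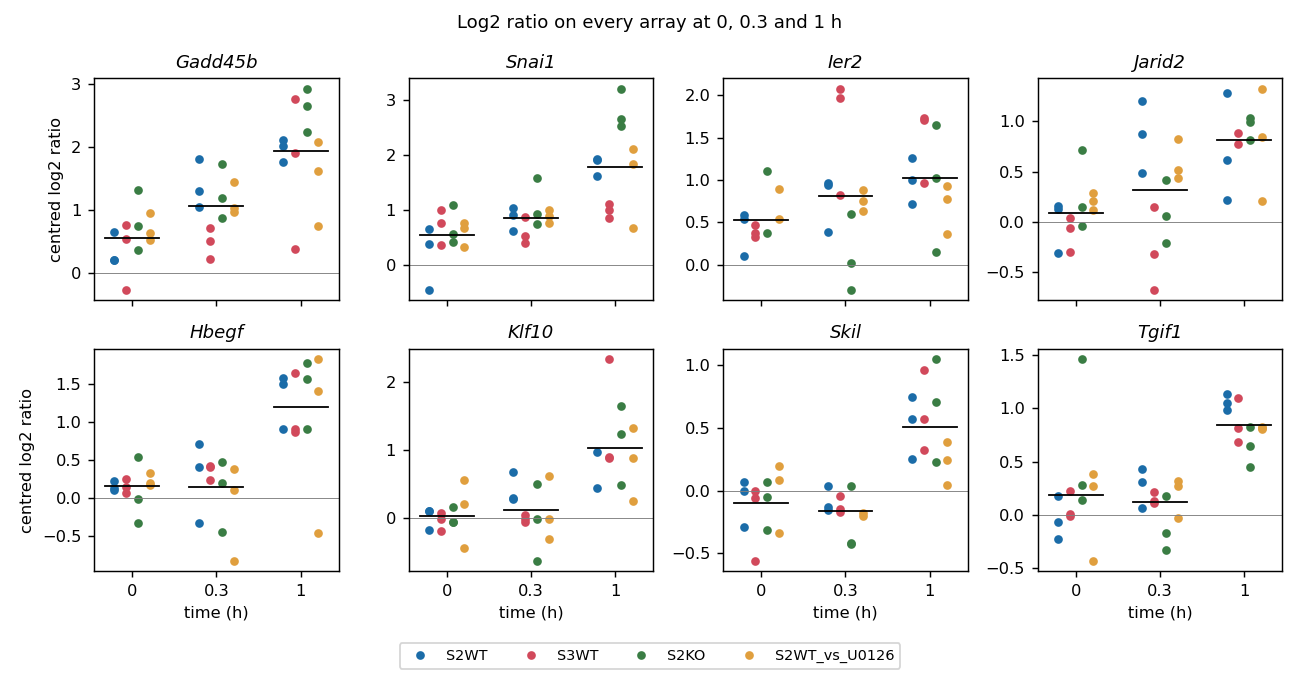
Median-centred log2 ratio (vertical axis) on each array at 0, 0.3 and 1 h (horizontal axis) for 8 genes; dots are arrays, coloured by line, and black bars are means over the lines. Gadd45b and Snai1 have higher means at 0.3 h than at 0 h (1.07 against 0.55 and 0.85 against 0.54), while the means of Hbegf are 0.15 at both times and 1.20 at 1 h.

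The Smad corepressors were not called at 0.3 h and rose between 0.3 h and 1 h, a call that held in 14 of 14 alternatives for Tgif1 and in 7 of 13 for Skil. Skil was not called without centring (limma adjusted p = 0.318), with a replicate block (0.243) or without any single line. Skil, which encodes SnoN, differed from 0 h by -0.061 ± 0.094 (SE), with a 95% interval of -0.26 to 0.14. Its values ran from -0.56 to 0.20 at 0 h, from -0.43 to 0.039 at 0.3 h (11 arrays) and from 0.043 to 1.05 at 1 h, so that no array at 1 h was as low as any at 0.3 h. Tgif1, a homeodomain corepressor, differed by -0.060 ± 0.16 at 0.3 h, with an interval of -0.38 to 0.26. Its values ran from -0.33 to 0.43 at 0.3 h and from 0.45 to 1.14 at 1 h, again without overlap.

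These were the only probes called between 0.3 h and 1 h, 2 of 7657 (0.0261%), both higher; 305 had an unadjusted p under 0.05. Tgif1 rose by 0.72 ± 0.080 (SE; limma adjusted p = 7.4e-05) and Skil by 0.69 ± 0.11 (limma adjusted p = 0.0176). All 12 arrays at 1 h were above their own line's 0.3 h mean for each gene. Against 0 h, Tgif1 at 1 h was not called (limma adjusted p = 0.144), and its 0 h values were more spread, from -0.43 to 1.46, than those at 0.3 h. The second Tgif1 probe gained 0.42 ± 0.10 from 0.3 h to 1 h and was not called (limma adjusted p = 0.339). Smad7, the inhibitory Smad, was 0.10 ± 0.11 above 0 h at 0.3 h and 0.30 ± 0.12 above it at 1 h, and called at neither.

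Hbegf, Klf10 and Sertad4, called at 1 h, were within 0.1 log2 units of 0 h at 0.3 h. Of the 11 probes called at 1 h, 7 carry a single gene symbol: Gadd45b, Snai1, Skil, Hbegf, Klf10, Jarid2 and Sertad4. Hbegf, a ligand of the epidermal growth factor receptor, differed by -0.0049 ± 0.15 (SE) at 0.3 h, with an interval of -0.32 to 0.31. Its mean was 0.15 at 0 h and at 0.3 h, and 1.20, 1.89 and 2.12 at 1, 2 and 4 h. Its spread was wider at 0.3 h, with values from -0.83 to 0.71 against -0.33 to 0.53 at 0 h. Klf10, a zinc finger repressor induced by TGF-β, differed by 0.092 ± 0.14 and Sertad4 by 0.090 ± 0.063. The 1 h calls held unevenly in the 24 fits without 1 array, or 22 where the probe could be tested in fewer. Gadd45b, Snai1 and Sertad4 were called in 24 of 24, Hbegf in 11 of 24, Klf10 in 9 of 22, Jarid2 in 11 of 22 and Skil in 7 of 24. Among the alternatives of processing and lines, Gadd45b was called in 10 of 14, and Snai1, Sertad4 and Hbegf each in 9 of 14. Jarid2 was called in 6 of 13, Klf10 in 5 of 13 and Skil in 4 of 14. Klf10 had gone from a mean of 0.11 at 0.3 h to 1.04 at 1 h and back to 0.33 at 2 h.

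Jarid2, a subunit of Polycomb repressive complex 2, was the least even of the 7. It differed by 0.87 in S2WT, 0.38 in S2WT_vs_U0126, -0.17 in S3WT and -0.18 in S2KO, a shared value of 0.22 ± 0.15 (SE). At 0.3 h its values ran from -0.68 to 1.21 and contained the 0 h range of -0.31 to 0.72. The difference between lines was not called for it (limma adjusted p = 1 for the line-by-time term).

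**Figure D3:**
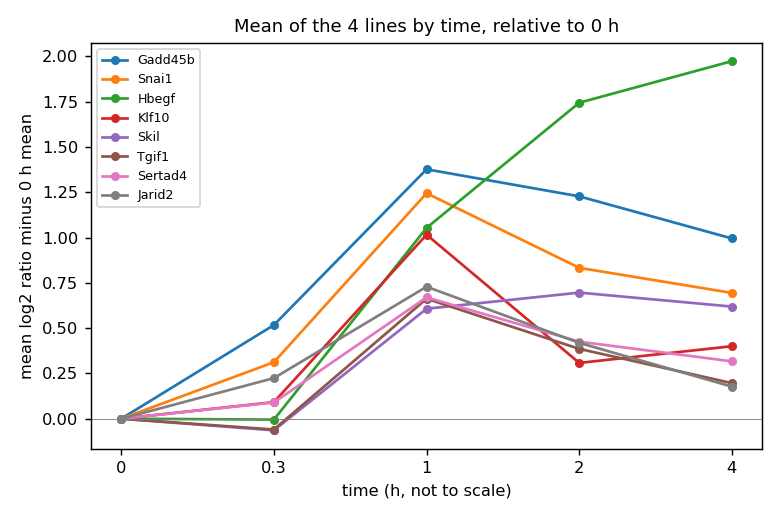
Mean log2 ratio at each time over the measured arrays, up to 12 from 4 lines, minus the 0 h mean (vertical axis). The genes are the 7 named genes called at 1 h and Tgif1, and times in hours are evenly spaced, not to scale. At 0.3 h Gadd45b is at 0.52, Snai1 at 0.31 and Jarid2 at 0.22. The other 5 are lower, with limma differences between -0.061 and 0.092. The 7 genes were picked by their 1 h difference from the same 0 h arrays that are subtracted here.

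No immediate early gene was called at 0.3 h. Of 14 genes that were always to be described, 9 could be tested: Fos was not measured on enough arrays, and Jun, Junb, Egr1 and Dusp1 have no probe with a single symbol. Ier2, an immediate early regulator of transcription, differed by 0.31 ± 0.22 (SE) with opposite signs in different lines. In S3WT it was 0.47, 0.37 and 0.33 at 0 h and 0.83, 1.96 and 2.08 at 0.3 h, without overlap. In S2KO it was 1.10 and 0.38 at 0 h, with 1 array missing, and 0.025, -0.30 and 0.60 at 0.3 h. Per line these are 1.23 and -0.63, and the line difference was not called (limma adjusted p = 1). Myc, a growth-driving transcription factor that TGF-β represses in many epithelial cells, differed by -0.16 ± 0.11, with 4 of 12 arrays above the 0 h mean of their line. Bhlhe40, a clock-linked repressor, differed by -0.030 ± 0.18 and Ccn1, a matricellular protein gene, by 0.11 ± 0.095.

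**Figure D4:**
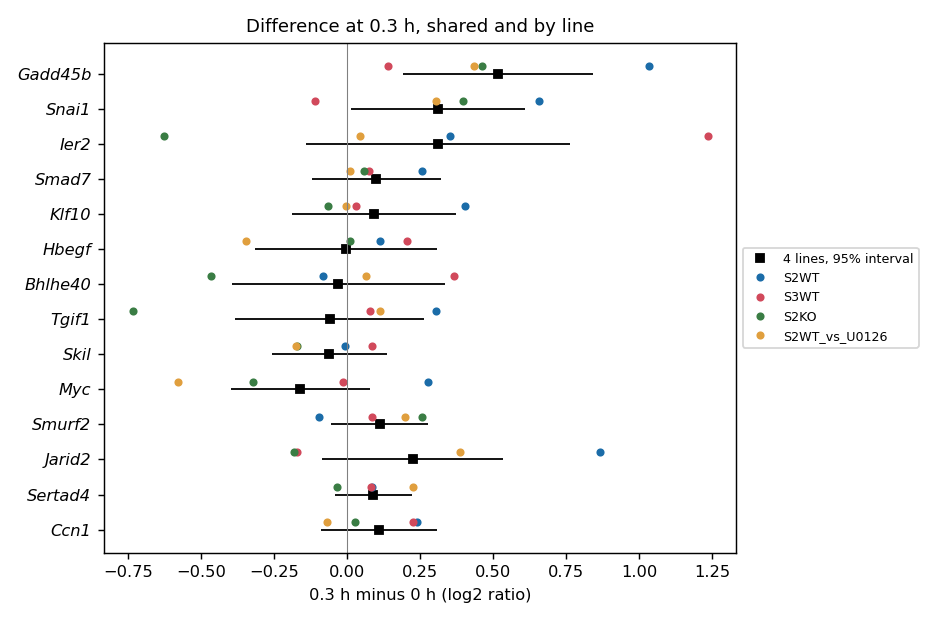
Difference between 0.3 h and 0 h in log2 ratio (horizontal axis) for 14 genes of TGF-β and immediate early responses; squares with bars are the shared value and its 95% interval from limma, and dots are the lines. The intervals of Gadd45b (0.19 to 0.84) and Snai1 (0.013 to 0.61) lie above 0, the other 12 include 0, and no gene is called after adjustment.

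None of the gene lists held a called member at 0.3 h, as none of the 7545 probes was called. Of 17 probes for TGF-β induced genes, 0 were called at 0.3 h and 2, Gadd45b and Snai1, had an unadjusted p under 0.05 by limma. Their median difference was -0.0049, with 7 of 17 above 0, beside a median of -0.018 and 3440 of 7545 above 0 over all probes. At 1 h, 5 of the 17 were called, all higher, beside 0.141% of all probes, and the median was 0.30, beside -0.0069 over all probes. The list was written with earlier results of these data known, so these values are no independent evidence about it. Immediate early transcription factors (13 probes) had a median of 0.032 at 0.3 h and 0.14 at 1 h, with 0 and then 1 called. Other immediate early and stress-induced genes (16 probes at 0.3 h) had a median of 0.015, and Gadd45b was their only member with an unadjusted p under 0.05.

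No component of the pathway was called either. Ligands, receptors and Smads (28 probes) spread from -0.20 to 0.43 with 0 called, and the highest, Smad4, the partner of the activated Smads, was at 0.43 ± 0.31 (SE). Tgfbr3, the co-receptor betaglycan, was lowest, at -0.20 ± 0.13, while its other probes gave -0.17 and 0.049. Smurf2, a ubiquitin ligase that acts on the pathway, was at 0.11 ± 0.080 at 0.3 h on the probe with the smallest p. That probe was called at 2 h and 4 h (limma adjusted p of 0.00476 and 0.0123). The other Smurf2 probes gave -0.042 and -0.0024 at 0.3 h, and their values at 2 h and 4 h are not given here. The MAP kinase cascade and its inhibitors (20 probes) had a median of -0.015 and 1 member with an unadjusted p under 0.05, Mapk9, a kinase of the JNK family, at -0.47 ± 0.22.

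Genes of matrix, cytoskeleton, growth and metabolism gave medians on both sides of 0 with 0 called in each list. The medians were 0.0017 for extracellular matrix and proteases (23 probes), -0.025 for actin cytoskeleton and adhesion (25), -0.014 for the cell cycle (24), 0.070 for ribosomal proteins (17) and 0.059 for the mitochondrial respiratory chain (37). They were -0.090 for heat shock and the unfolded protein response (8 probes), -0.11 for cholesterol and fatty acid synthesis (15) and 0.088 for the interferon response (12). Unadjusted p-values under 0.05 fell on 1 member each of the matrix (Col5a2, lower), cell cycle (Cdc25a, higher), respiratory chain (Ndufc2, higher) and lipid (Elovl6, lower) lists. Markers of epithelium (5 probes), leukocytes (8), endothelium (6) and muscle (6) held 0 called and 0 at that unadjusted p, and their medians ran from -0.37 for endothelium to 0.014 for muscle. In such bulk samples fewer cells of a type and less RNA per cell cannot be told apart.

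Since no gene was called, the genes with the smallest p among those with the same sign in all 4 lines are given as values only. Gadd45b was among the 10 on the higher side. The largest value there was Adam22, a non-catalytic ADAM protein, at 2.61 ± 0.57 (SE; limma adjusted p = 0.965), measured on 10 arrays at 0 h and 9 at 0.3 h. Its values ran from -3.58 to 0.54 at 0 h and from -0.44 to 3.19 at 0.3 h, and 9 of 9 arrays were above their line's 0 h mean. Its mean was -1.03 before treatment and 1.62 at 0.3 h. The later means, 0.014 after 1 h and -0.33 after 2 h, lay between them. The other 8 were Grp (1.01), Cd37 (0.99), Rtl3 (0.71), Agmo (0.48), Cdc25a (0.47), Cys1 (0.40), Arhgap24 (0.36) and Lysmd2 (0.32). For Cdc25a, a phosphatase that starts DNA replication, the other probes gave -0.10 and 0.26.

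On the lower side the 10 ran from -0.98 to -0.31. Dpep1, a membrane dipeptidase, was at -0.98 ± 0.29 (SE), below its line's 0 h mean on 9 of 9 arrays measured, and its mean was -0.026 at 1 h. Pgrmc2 (-0.77), Mad2l1 of the spindle checkpoint (-0.55), the mitochondrial peptidase Pitrm1 (-0.43), Dmap1 (-0.40) and Mrpl38 of the mitochondrial ribosome (-0.39) followed. Ccdc28b (-0.39), the actin-severing protein Dstn (-0.37), Ppil2 (-0.35) and Capn3 (-0.31) closed the group. The second probes of Mrpl38 and Ppil2 gave 0.21 and 0.0077. The choice by smallest p fixes that these values look large, and they support no change.

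The 4 lines differed in their 0.3 h response at 1 probe of 7545 (0.0133%), while 200 had an unadjusted p under 0.05. This was Nefm, the medium neurofilament subunit, with a limma adjusted p of 0.0106 for the line-by-time term. In S3WT it went from -1.22, -0.85 and -1.04 at 0 h to 1.22 and 1.23 at 0.3 h, with the third array missing. In S2KO it went from 0.70, -0.046 and -0.30 to -1.37 and -0.90, again with 1 array missing. S2WT and S2WT_vs_U0126 differed by 0.056 ± 0.25 and -0.24 ± 0.25 (SE). At 1 h its S2KO arrays read -4.54, 0.010 and 4.59, a spread far wider than at 0 h. Its S3WT arrays at 1 h read 0.41 and -2.06, with 1 array missing, also a wider spread than at 0 h. The call held in 8 of 13 alternatives. Those that lost it included the fits without the S2WT arrays, without the S3WT arrays, with S3KO added and with a block for the replicate number.

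The ratios at 0.3 h resembled those of untreated RNA against itself. Over the 3916 probes measured on all 24 arrays, the mean ratio at 0.3 h and that at 0 h had a Pearson correlation of 0.81 across probes, which share lines and array design. The standard deviation over probes was 0.27 at 0 h, 0.31 at 0.3 h and 0.18 for their difference. Tested against 0 with no reference to the 0 h arrays, the 0.3 h arrays gave 1763 called probes of 7993 (22.1%) by limma, 988 higher and 775 lower. The 0 h arrays, with no treatment in either channel, gave 1673 of 8182 (20.4%) by the same test. Of these, 991 probes were called at both times, 56.2% of the 0.3 h list and 59.2% of the 0 h list, and all 991 had the same sign. Against the 0 h arrays the count at 0.3 h was 0 of 7545, a test that also carries the spread of those 12 arrays.

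**Figure D5:**
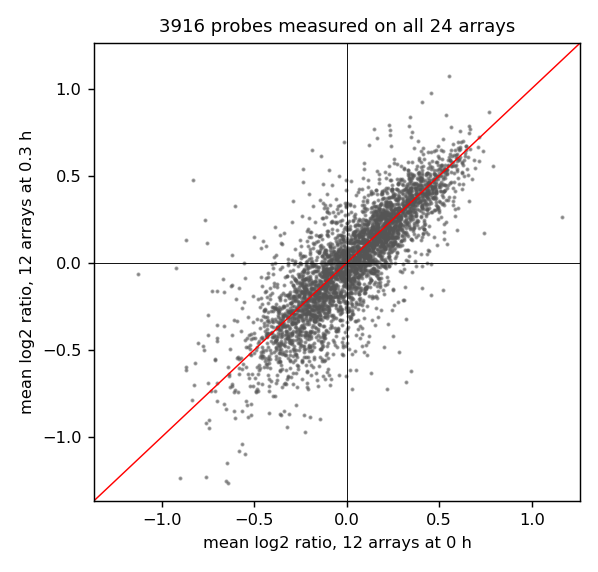
Mean median-centred log2 ratio of 12 arrays at 0 h (horizontal axis) against that of 12 arrays at 0.3 h (vertical axis); each dot is 1 of 3916 probes measured on all 24 arrays, and the red line marks equal values. The dots follow the line, with a correlation of 0.81.

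The 24 arrays held from 7846 to 8539 measured probes of 8976, with 5 to 37 values per array at the upper limit of the deposited scale. The correlation of an array with the mean of the other arrays at its time ran from 0.18, for the third S2WT array at 0 h, to 0.62. Their median absolute deviation ran from 0.28 to 0.69. The sources used here do not say which channel is the numerator. Ratios were read as channel 2 over channel 1, a direction that is likely from the order of the labels and from the rise of known TGF-β targets at later times. Since those targets helped to set the direction, their being higher is no independent finding. If the ratio runs the other way every sign turns, and the counts stay.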

How the data were processed

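The authors deposited log2 ratios of the channels of each array, with background correction, dyes and normalization not given in the sources used here. Channel intensities were not used, and precision is limited by the number of arrays. Values at the upper limit of 16.61, the log2 of a ratio of 100000 (471 in these 24 arrays), were set to missing, 14887 cells were blank, and each array was centred on its median. Differences were fitted in R 4.3.3 with limma 3.58.1 (lmFit, eBayes) with line as a factor, on probes with values on 2 or more arrays per group, and adjusted by Benjamini-Hochberg over all probes tested, called below 0.05. The fitting code was tested on simulated independent normal noise with added changes and no line effects. That checks the code and not how well the fits suit these arrays. Symbols came from the platform annotation (7348 of 8976 probes with 1 symbol, 399 with several, 1229 with none), 7274 of them matched to RefSeq, whose promoter table holds Gadd45b and Snai1.

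The arrays, the 17 gene lists and the rule for named genes were chosen with earlier results of these data known. The rule named up to 10 rises and 10 falls with the same sign in 4 lines, filled by smallest p where not called, up to 3 members of each list by smallest p, 14 fixed genes, the genes of called line differences and those called from 0.3 h to 1 h. The genes called at 1 h against 0 h were added after their values were seen. Where several probes carry a gene, that with the smallest p stands for it. Alternatives covered centring, scale, probe filters, spread, block, weights, averaging of probes, the upper limit, and arrays and lines left out or added.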

Additional observations from a re-analysis of the deposited data

Results flagged for a closer look

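Nefm differed between lines in its 0.3 h response, by a test of the line-by-time term (limma adjusted p = 0.0106): 2.26 ± 0.28 (SE) in S3WT and -1.25 ± 0.28 in S2KO. S3WT and S2KO each had 2 of 3 arrays at 0.3 h measured. In the 20 fits without 1 array that could test it, adjusted p-values ran from 0.00474 to 0.0562. In the other 4, without 1 of the measured 0.3 h arrays of S3WT or S2KO, it could not be tested.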

How the results depend on the processing

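The count of 0 for the shared 0.3 h response held in 15 of 16 alternatives and in each of 24 fits without 1 array (0 to 0). The exception was 1763 for the 0.3 h arrays against 0 without the 0 h arrays. Unadjusted p-values under 0.05 numbered 175 to 295 in the fits without 1 array. The counts at 1, 2 and 4 h against 0 h and their alternatives were chosen after seeing the data.

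The 2 calls from 0.3 h to 1 h became 1 without centring, 5 with arrays scaled, 4 with probes measured on every array, 14 with the spread of all 74 arrays, 8 with quality weights, 6 with probes of a gene averaged, and 1 without S2WT, S2KO or S2WT_vs_U0126. Tgif1 was called in 14 of 14 alternatives and Skil in 7 of 13. Without 1 array the count ran from 1 to 8: 8 without S2WT_vs_U0126 1 h replicate 1, 6 without S3WT 1 h replicate 2, and 1 without S2WT_vs_U0126 0.3 h replicate 1 or 2.

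The 11 calls at 1 h became 0 without S2WT or with S3KO added, 4 without S3WT, and 1 without S2KO or S2WT_vs_U0126. Without 1 array they ran from 5 to 14, and were 5 or 6 without any S3WT 0 h array, S3WT 1 h replicate 1 or 3, S2KO 0 h replicate 2 or 3, S2KO 1 h replicate 1, S2WT 0 h replicate 1 or S2WT_vs_U0126 1 h replicate 2. The 50 at 2 h became 23 without centring (19 higher), 79 with weights (61 higher), and 8, 19, 25 and 15 without S2WT, S3WT, S2KO and S2WT_vs_U0126. Their range without 1 array was 40 to 72. The 247 at 4 h became 163 without centring, and 55, 120 and 65 without S2WT, S2KO and S2WT_vs_U0126, with a range of 192 to 298. The count of 1 for line differences became 2 with the spread of all 74 arrays. It became 0 with probes measured on every array, without S2WT, without S3WT or with S3KO added. Without 1 array it ran from 0 to 2. It was 0 without S3WT 0.3 h replicate 1 or 2, S3WT 0 h replicate 1 or S2KO 0.3 h replicate 3. It was 2 without S2WT_vs_U0126 0.3 h replicate 3. These counts need not be of the same probe. Without S2KO 0.3 h replicate 2 the count was 1, where Nefm could not be tested. For changes not due to fewer arrays or probes, the cause was not tested.

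With a replicate block the counts were 0 at 0.3 h, 1 from 0.3 h to 1 h, 3 at 1 h, 21 at 2 h, 103 at 4 h and 0 for line differences. Between 0 h and 0.3 h, deviations of same-numbered arrays correlated by -0.11 to 0.30, and most pairs were below 0.1. The numbers were therefore not taken to pair the arrays. In S2WT each array correlated best with its own number (0.096 to 0.16), a hint from the data and not the design. The same held for S2WT_vs_U0126 replicates 1 and 3 (0.30 and 0.14) and S3WT replicate 3 (0.089), and for no other array. Later times were not checked.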
